A study of Drosophila melanogaster with 6 samples.

Results

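Serine protease genes that carry a Jonah, trypsin or Ser symbol were followed in Drosophila melanogaster whole larvae labelled wild-type or crol-KO. These families were chosen with earlier results of these data known. Their genes were matched by symbol alone, as every gene whose name began with Jon and a digit, ended in Try after a Greek letter, or was Ser with a number. This gave 31 of the 16508 genes in the tables, made up of 16 Jonah genes, 11 trypsin genes and 4 Ser genes. A minimum of 10 counts in at least 3 libraries was met by 29 of them, and by 12434 genes in all. Polyadenylated RNA came from pools of 40 whole larvae at instar 3, collected as separate biological repeats. The sample titles call 3 of the libraries wild-type and 3 crol-KO, and they are named here by that label, as WT-labelled and KO-labelled. The wild-type larvae were of the Oregon strain. The crol-KO larvae carried a CRISPR/Cas9 deletion of crol marked by DsRed, made in white-eyed embryos that also carry a DNAlig4 mutation and express Cas9 from the Actin5C promoter, and the survivors were crossed to a yellow white stock. Genotype and strain background therefore cannot be told apart. The paper reports that crol-KO larvae still hold some Crol protein, which it proposes was supplied by the mother. The knockout line was balanced against a CyO chromosome that carries a transgene with the w[+mC] marker. Whether the larvae used for RNA were homozygous is not stated in the methods.

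Jonah and trypsin proteins belong to the chymotrypsin-like class of serine endopeptidases, which cut proteins with a catalytic triad of histidine, aspartate and serine. Trypsins cut after lysine or arginine, whereas chymotrypsins cut after large hydrophobic residues. These enzymes are made by enterocytes, the absorptive cells of the midgut, as inactive precursors and are secreted into the lumen, where they digest dietary protein. Most Jonah genes lie in small groups of related copies named for their cytological position, and the trypsin genes with Greek letters lie in one group on the right arm of chromosome 2.

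The genotype labels carry a conflict that bears on every direction given here. The table names give the opposite genotype to the sample titles, and the titles were followed. In WT-labelled libraries, crol, the targeted gene, stood at 63.3, 60.6 and 73.2 CPM (counts scaled to library size and TMM factor), beside 42.8, 39.1 and 37.0 CPM in KO-labelled libraries. This was a log2 fold change of -0.73 (SE 0.122, adjusted p = 0.0043, edgeR's quasi-likelihood test, p-values adjusted by Benjamini-Hochberg). With the trend of counts over transcript length removed, that log2 fold change was -0.14 (adjusted p = 0.63, same edgeR test). The knockout deletes coding sequence of crol, yet on the TMM scale the KO-labelled libraries kept 0.604 times the WT-labelled level. The drop in crol therefore does not settle the labels. The eye colour gene w, mutated in the stocks used to make the knockout, had 0.817, 0.623 and 0.561 CPM in the WT-labelled libraries against 15.2, 16.6 and 17.9 CPM in the KO-labelled ones, which goes against the labels. The balancer of the knockout line carries a w marker, whose part in the KO-labelled values was not tested. Under the titles, that marker has no bearing on the low w values of the WT-labelled libraries. If the table names rather than the titles held the true genotype, each direction here would be turned around. The libraries held between 23637969 and 49236787 expected counts, and the TMM factors were 1.06 to 1.31 in the WT-labelled libraries and 0.778 to 0.906 in the KO-labelled ones.

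Summed by family, Jonah and trypsin transcripts were more abundant in every KO-labelled library than in any WT-labelled one. The 31 genes made up 8.78%, 8.63% and 9.54% of the summed TPM (RSEM's transcript abundance, per transcript length) in WT-labelled libraries 1, 2 and 3. In the KO-labelled libraries they made up 19.2%, 17.5% and 18.2%. The groups do not overlap, and these shares do not depend on any scaling between libraries. As a percentage of expected counts, the same genes took 7.66%, 6.85% and 8.57% against 17.4%, 17.6% and 17.6%. The 16 Jonah genes held 6.60% to 7.25% of summed TPM in the WT-labelled libraries and 12.5% to 13.8% in the KO-labelled ones, and the 11 trypsin genes 2.02% to 2.29% and 5.02% to 5.42%. In RNA from whole larvae, more cells of a type and more RNA per cell cannot be told apart.

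**Figure D1:**
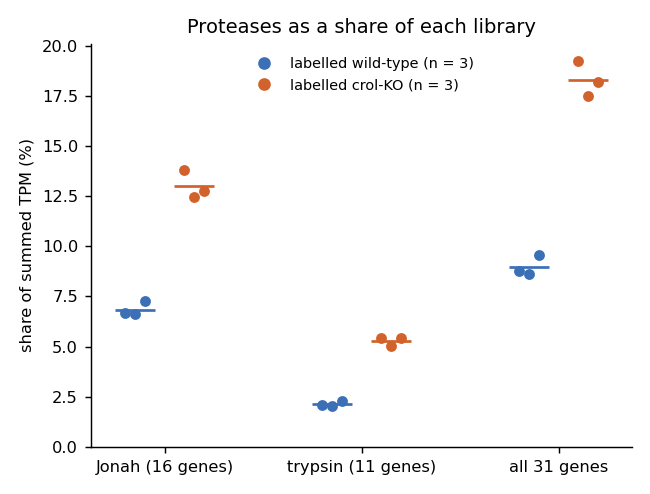
Percentage of the summed TPM of each library (vertical axis, from 0) held by the Jonah genes, the trypsin genes and all 31 protease genes. Each point is 1 library, the short lines are group means, and the KO-labelled points lie above all WT-labelled points in each of the 3 sets.

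A call needed both thresholds to be passed, 0.05 for the adjusted p and 1 for the size of the log2 fold change. All 27 Jonah and trypsin genes had at least 1635 counts in every library, so that none passed the minimum through 1 group alone. Of these 27, 22 were called higher in the KO-labelled libraries and none lower, where 6.0% of all tested genes were called higher and 7.55% lower. By adjusted p alone 26 of 27 were higher, against 15.3% of all tested genes. CPM did not overlap between the groups for any of the 27, a pattern found for 23.7% of all tested genes, and TPM did not overlap for 23 of them, against 4.75% of all tested genes. The median log2 fold change of the 27 genes was 1.45, beside -0.05 for all tested genes.

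Before any comparison of groups, the proteases already stood among the most abundant transcripts of the larva. Ranked by mean TPM over all genes of the tables, 5 of the 20 highest transcripts in the WT-labelled libraries were Jonah or trypsin genes, and 7 of the 20 highest in the KO-labelled ones. Among the 50 highest there were 8 and 14. Jon99Cii had the highest level of the families in the WT-labelled libraries, with 15311, 15819 and 17509.9 TPM, against 22746, 19667 and 20728 TPM in the KO-labelled ones. deltaTry had the highest mean level in the KO-labelled libraries, with 28370.3, 21979.5 and 22801 TPM, against 10323, 10305.5 and 12147 TPM. In rank of mean TPM, deltaTry moved from 10 to 3, Jon66Ci from 25 to 7 and gammaTry from 41 to 11, whereas Jon99Cii moved from 4 to 6.

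The families spanned a wide range of levels. In the WT-labelled libraries the Jonah genes ran from 212 ± 25.9 TPM for Jon74E to 16213 ± 1151 TPM for Jon99Cii (SD, n = 3 each). The trypsin genes ran from 60.0 ± 2.60 TPM for etaTry to 10925 ± 1058 TPM for deltaTry. Across the 27 genes, the log2 fold change was only loosely ordered by level, with a Spearman rho of 0.28 between the log2 fold change and the mean TPM, given as a description over genes that share the same libraries.

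**Figure D2:**
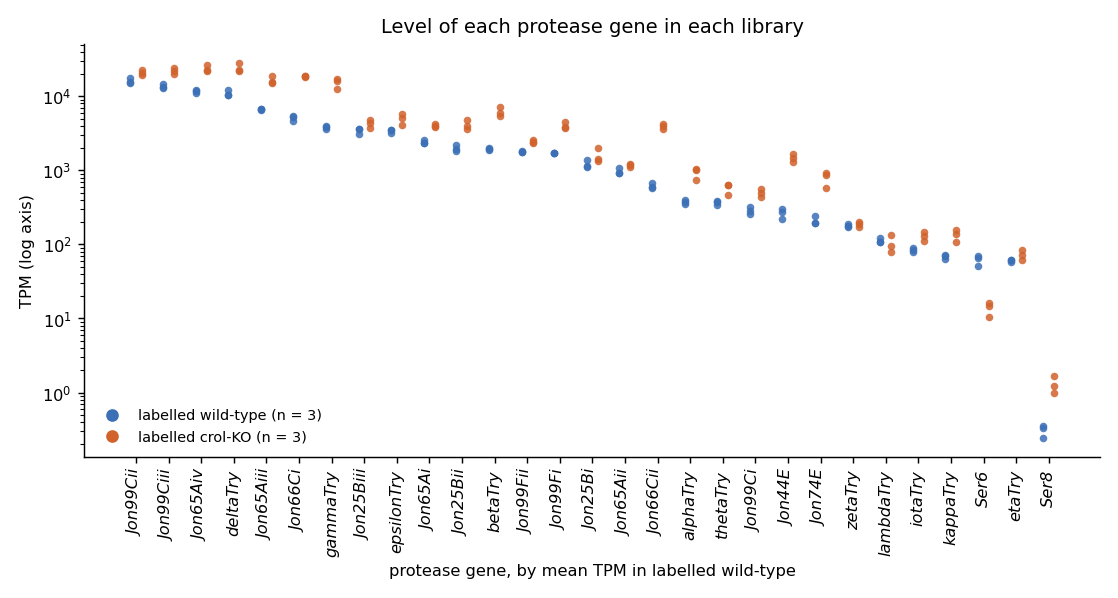
TPM of the 29 protease genes past the count minimum (log axis), ordered by mean level in the WT-labelled libraries, with 1 point for each library. The KO-labelled points lie above the WT-labelled ones for 24 of the genes, overlap them for Jon25Bi, lambdaTry, zetaTry and etaTry, and lie below them for Ser6.

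Jon66Cii changed most among the Jonah genes. It had 588, 576 and 681 TPM in the WT-labelled libraries and 3575, 4009.9 and 4235 TPM in the KO-labelled ones, so that the lowest value of the second group was several times the highest of the first. Its log2 fold change was 3.34 (SE 0.268, adjusted p = 0.00022, edgeR's quasi-likelihood test), a 10.1-fold difference on the TMM scale. Its neighbour Jon66Ci, at a far higher level, had 5312, 4635 and 5448 TPM against 18827, 18533.5 and 18092 TPM. The spread between KO-labelled libraries was small for this gene, and its log2 fold change was 2.50 (SE 0.271, adjusted p = 0.00074, same edgeR test).

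The Jonah genes that lie outside any group, Jon44E on 2R and Jon74E on 3L, were among the 5 Jonah and trypsin genes with the largest log2 fold changes. Jon44E had 271, 220.4 and 299 TPM in the WT-labelled libraries and 1475, 1685 and 1278 TPM in the KO-labelled ones. Its log2 fold change was 3.14 (SE 0.296, adjusted p = 0.00041, edgeR's quasi-likelihood test). Jon74E, the longest transcript of the families, had 197, 242 and 196 TPM against 858, 581 and 911 TPM, a log2 fold change of 2.55 (SE 0.178, adjusted p = 0.00014, same edgeR test). In this gene KO-labelled library 2 lay well below its other two, and still above all WT-labelled libraries.

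In the Jon65A group on 3L the most abundant genes changed more than their less abundant neighbours. Jon65Aiii had 6791, 6462 and 6841 TPM in the WT-labelled libraries against 18882, 14978 and 15823 TPM in the KO-labelled ones, and a log2 fold change of 1.95 (SE 0.237, adjusted p = 0.0011, edgeR's quasi-likelihood test). Jon65Aiv had 11254, 11922 and 12318.5 TPM against 26116, 21644 and 22803 TPM, a log2 fold change of 1.64 (adjusted p = 0.0026). Jon65Ai reached 1.38 (adjusted p = 0.0023, same edgeR test). Jon65Aii was past the adjusted p but not the fold threshold, with 908, 936 and 1068 TPM against 1186, 1123 and 1217 TPM and a log2 fold change of 0.93 (adjusted p = 0.013).

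The groups on 3R and 2L held most of the Jonah genes near the fold threshold. Jon99Fi had 1699, 1709 and 1691 TPM in the WT-labelled libraries, the tightest replicates of any of these genes, against 3905, 3782 and 4455 TPM in the KO-labelled ones. Its log2 fold change was 1.92 (SE 0.211, adjusted p = 0.00079, edgeR's quasi-likelihood test), while that of its neighbour Jon99Fii was 1.11 (adjusted p = 0.005). In the Jon99C group the log2 fold changes were 1.45 for Jon99Ci, 1.28 for Jon99Ciii and 1.03 for Jon99Cii. In the Jon25B group on 2L, Jon25Bii was called higher at 1.74 (adjusted p = 0.0038, edgeR), Jon25Bi at 1.09 (adjusted p = 0.029), and Jon25Biii reached 0.99 (adjusted p = 0.028), just under the fold threshold. Jon25Bi and Jon99Cii lie near that threshold and are the least secure calls. The call of Jon25Bi was lost without WT-labelled library 1 or 2, or KO-labelled library 2 or 3 (log2 fold change 0.76 to 1.18), and that of Jon99Cii without the same libraries (0.92 to 1.04). The call of Jon99Ciii was lost without WT-labelled library 1 (log2 fold change 1.30, adjusted p = 0.059, edgeR).

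Of the 11 trypsin genes, 8 were called higher in the KO-labelled libraries and 10 were past the adjusted p, with log2 fold changes from 0.52 to 2.64, all of which stayed positive on the TPM scale except that of lambdaTry (-0.15). gammaTry, whose separate value is uncertain because near-identical copies share reads with it, had the largest log2 fold change of the 11, with 3856, 3668 and 3974 TPM in the WT-labelled libraries and 12362, 17083 and 16274 TPM in the KO-labelled ones. The log2 fold change was 2.64 (SE 0.299, adjusted p = 0.00088, edgeR's quasi-likelihood test). betaTry had 1951, 1896 and 1986 TPM against 5978, 5351 and 7118 TPM, a log2 fold change of 2.33 (SE 0.231, adjusted p = 0.00052). The WT-labelled replicates stood within a narrow band, and the KO-labelled libraries were all far above it. alphaTry reached a log2 fold change of 1.95 (adjusted p = 0.00063, edgeR) and deltaTry 1.80 (adjusted p = 0.0025).

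The order of the trypsin genes along 2R, from the Release 6 annotation, is lambdaTry, kappaTry, zetaTry, etaTry, thetaTry, alphaTry, epsilonTry, betaTry, gammaTry, CG30031, CG30025, deltaTry, CG13202 and iotaTry. The genes at places 1 to 5 had levels of at most 638 TPM in any library, and the most abundant trypsins, epsilonTry, betaTry, gammaTry and deltaTry, lie at places 7 to 12. kappaTry, at place 2, had 72.7, 62.6 and 70.8 TPM in the WT-labelled libraries against 155, 108 and 138 TPM in the KO-labelled ones. Its log2 fold change of 1.60 (SE 0.181, adjusted p = 0.00089, edgeR's quasi-likelihood test) was larger than that of its neighbours lambdaTry, at 0.52 (adjusted p = 0.051), and zetaTry, at 0.72 (adjusted p = 0.015). The difference between neighbours was not tested. TPM overlapped between the groups for lambdaTry, with 121, 107 and 108 against 133, 80.1 and 95.6, and for zetaTry, with 177, 173 and 187 against 201, 172 and 191. etaTry (0.91) was past the adjusted p only, and thetaTry (1.30), epsilonTry (1.21) and iotaTry (1.25) were called higher.

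**Figure D3:**
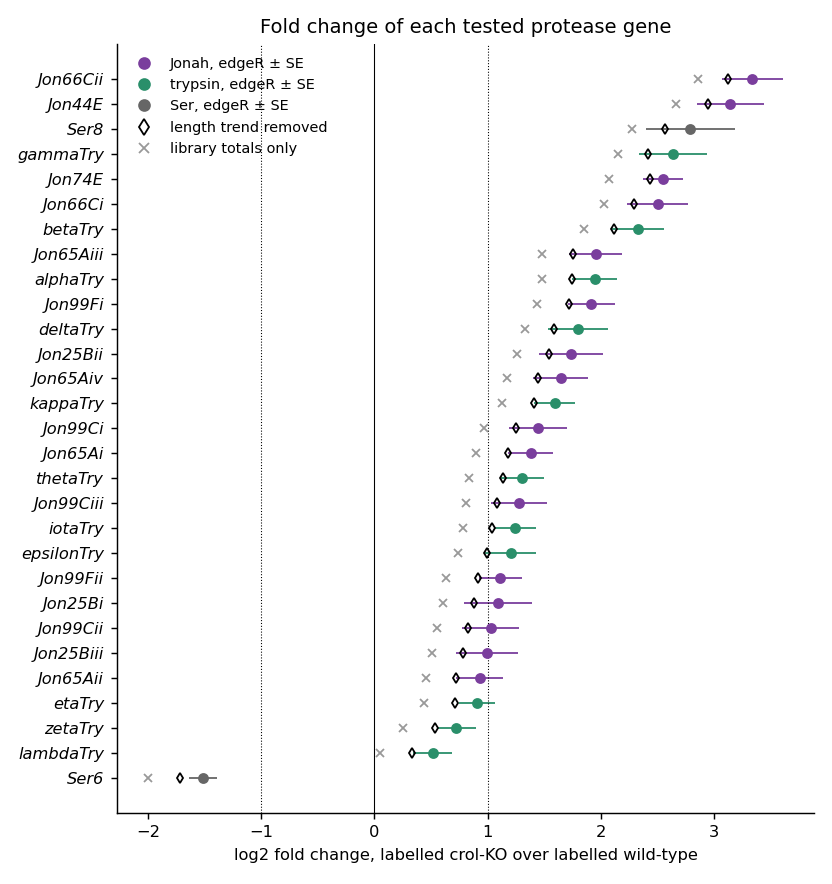
Log2 fold change (horizontal axis, KO-labelled over WT-labelled) of the 29 tested protease genes, as filled points with the SE from edgeR, n = 3 libraries a group. Diamonds show the value with the length trend removed and crosses the value with library totals only, and dotted lines mark the fold threshold. The 27 Jonah and trypsin points lie between 0.52 and 3.34, Ser6 lies at -1.52, and both alternatives lie to the left of the main value for all of them (lambdaTry turns to -0.15 on the TPM scale, which is not drawn).

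The 4 Ser genes matched by name did not move with the Jonah and trypsin genes as a set. Ser6, on the X chromosome, was lower in the KO-labelled libraries, with 65.2, 69.9 and 51.2 TPM in the WT-labelled ones against 16.1, 10.4 and 14.6 TPM. The log2 fold change was -1.52 (SE 0.123, adjusted p = 0.00023, edgeR's quasi-likelihood test), and it was the only gene matched by the rule that was called lower. Ser8, on 2R, was close to the detection limit, with 8, 10 and 7 counts in the WT-labelled libraries against 37, 81 and 27 in the KO-labelled ones. Its log2 fold change of 2.79 (SE 0.396, adjusted p = 0.0021, same edgeR test) rests on these small counts, and it passed the count minimum mainly through the KO-labelled libraries. Ser7 had 6, 3 and 10 counts against 0, 1 and 0 and was not tested. Ser12 had 0 counts in all 6 libraries, where 3 counts, the most that a count of 0 allows, correspond to 0.0603 to 0.149 CPM by library. These floors cover counting error only.

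Within each group of neighbouring genes, the share of 1 gene in the summed TPM of its group does not depend on the scaling between libraries. Of 25 such shares, 7 were higher and 14 lower in all KO-labelled libraries than in any WT-labelled one, and 4 overlapped. Jon99Fi overtook Jon99Fii, as it held 48.7%, 48.1% and 48.6% of the pair in the WT-labelled libraries and 61.6%, 61.5% and 63.3% in the KO-labelled ones. Jon66Cii held 9.97%, 11.1% and 11.1% of the Jon66C pair against 15.96%, 17.8% and 19.0%. Jon25Bii held 28.8%, 30.1% and 30.2% of the Jon25B sum in the WT-labelled libraries and 43.4%, 41.3% and 38.5% in the KO-labelled ones, close to the share of Jon25Biii there. The shares of 1 group sum to 100%, so that a gain of 1 gene is a loss of the others.

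The remaining groups shifted by less. Jon65Aiii held 30.6% ± 0.935 of the Jon65A sum in the WT-labelled libraries and 36.6% ± 0.819 in the KO-labelled ones (SD, n = 3 each), and Jon65Aii 4.42% ± 0.269 and 2.61% ± 0.226. Jon99Ciii held 45.3% ± 0.612 and 50.6% ± 0.613 of the Jon99C sum and passed Jon99Cii, which held 53.7% ± 0.648 and 48.3% ± 0.390. Among the trypsins, gammaTry held 18.0% ± 0.558 and 28.9% ± 5.68, epsilonTry 15.8% ± 0.749 and 9.37% ± 1.22, and betaTry 9.14% ± 0.393 and 11.6% ± 1.34. The share of deltaTry, the most abundant trypsin, was 51.2% ± 1.85 and 46.1% ± 5.51 and overlapped between the groups.

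**Figure D4:**
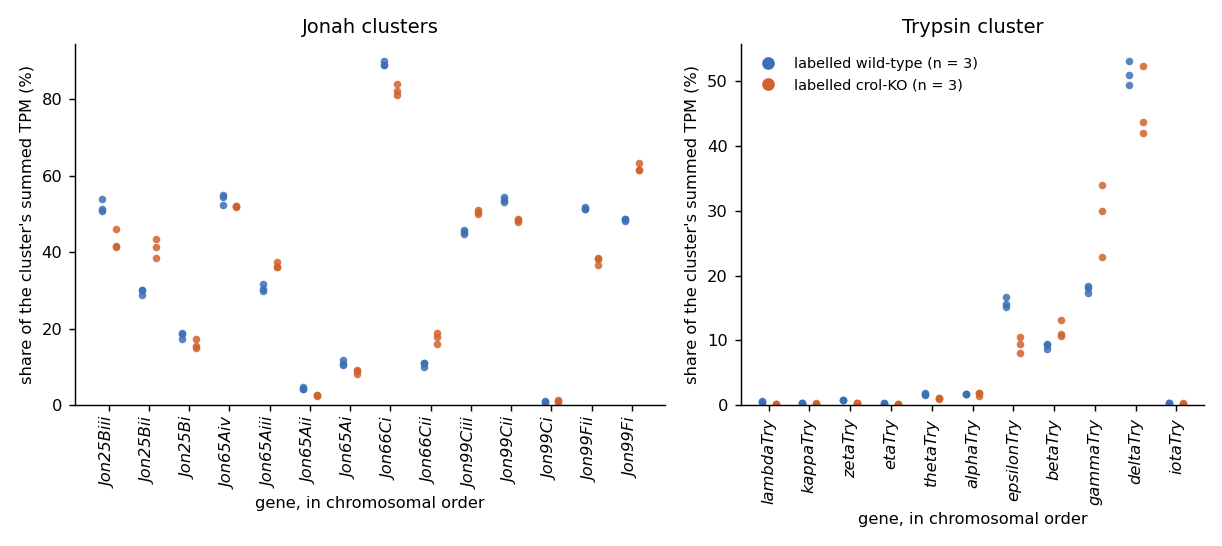
Share of each gene in the summed TPM of its own chromosomal group (vertical axis, percent), for the 5 Jonah groups (left) and the trypsin group (right), with genes in chromosomal order and 1 point for each library. Jon99Fi, Jon25Bii, Jon66Cii and gammaTry lie higher in the KO-labelled libraries, and Jon99Fii, Jon25Biii and epsilonTry lie lower.

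Most of these genes lie in groups of related copies, and the expected counts of close copies depend on how RSEM divided the reads they share. How alike the copies are was not measured here. The gammaTry row of the tables joins 3 transcript entries, and its abundance-weighted length was 810.0 bases in all WT-labelled libraries but 800.9, 789.4 and 790.3 bases in the KO-labelled ones, so that a different entry took part of the reads there. In KO-labelled library 1, gammaTry had the lowest and deltaTry the highest TPM of the KO-labelled libraries. CG30031 and CG30025, serine peptidase genes that lie between gammaTry and deltaTry and resemble them, had log2 fold changes of 2.52 (adjusted p = 0.0029, edgeR) and 3.59 (adjusted p = 0.0015). The separate values of these 4 genes are uncertain for that reason. Jon99Ciii, with 2 transcripts, had weighted lengths of 929.3, 956.4 and 921.1 bases in WT-labelled libraries 1, 2 and 3. In the KO-labelled ones they were 910.9, 897.4 and 897.2 bases, so that its TPM and its share carry the same limit. With the counts of related genes, grouped by symbol, summed before the fit, the log2 fold change was 2.07 (adjusted p = 0.0019, edgeR's quasi-likelihood test) for gammaTry, deltaTry, CG30025 and CG30031 together and 2.27 for alphaTry with betaTry. It was 1.29 for the Jon25B genes, 1.70 for Jon65A, 2.62 for Jon66C, 1.16 for Jon99C and 1.56 for Jon99F, all past both thresholds.

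Genes next to the protease groups were compared with all tested genes. For each of the 6 groups, the 3 nearest tested genes on each side were taken from the Release 6 annotation, 36 genes in all. The test called 3 of the 36 higher and 2 lower, close to the 6.0% and 7.55% of all tested genes. Their median log2 fold change was 0.15, beside 1.45 for the 27 proteases and -0.05 for all tested genes. Both called genes beside the Jon65A group, yip7 and CG10472, encode serine peptidases themselves, and the third was CDase, a ceramidase, beside the Jon99F group. ImpE1 and CG7120, on either side of the Jon66C pair, were called lower. None of the 6 genes around the trypsin group was called, and their log2 fold changes lay between -0.31 and 0.65.

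The size of the difference depended on how the libraries were scaled to each other, since the TMM factors differed between the groups. With library totals only, an alternative chosen after the values were seen, 13 of the 27 Jonah and trypsin genes were called higher, against 2.87% of all tested genes. Their median log2 fold change was then 0.97 and that of all genes -0.54. With limma on log2(TPM + 1), 11 were called higher, against 1.41% of all genes, with medians of 0.78 and -0.48. In both settings the median of all genes moved down, with 357 called higher and 2572 lower by library totals, and 175 and 1689 on the TPM scale. All 27 kept a positive log2 fold change with library totals, and 26 of 27 on the TPM scale, where lambdaTry was the exception.

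Transcript length also moved with the labelled groups. Over all tested genes, Spearman's rho between the log2 fold change and length was -0.37, across genes that are not independent replicates. The Jonah and trypsin transcripts are short, with a median of 875.0 bases (range 802 to 1450) beside 1677 for all tested genes. With the trend over length removed from each library, 18 of the 27 were called higher, against 5.06% of all tested genes, and their log2 fold changes ran from 0.33 for lambdaTry to 3.13 for Jon66Cii. epsilonTry, Jon25Bi, Jon99Cii and Jon99Fii lost their calls there, with log2 fold changes of 0.997, 0.88, 0.82 and 0.91.

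Other enzymes of the gut were compared through lists written by family or role. Among other serine peptidases of the same class, 10 of 25 tested genes were called higher and none lower, beside 6.0% higher and 7.55% lower over all tested genes, and their median log2 fold change was 0.92. Without WT-labelled library 3, 16 of them were called higher. The most abundant of these, CG18180, had 9388 ± 1310 TPM in the WT-labelled libraries and 26129.5 ± 458 TPM in the KO-labelled ones (SD, n = 3 each), so that its log2 fold change was 2.12 (adjusted p = 0.0021, edgeR's quasi-likelihood test). yip7 reached 1.58 (adjusted p = 0.0018) and CG10472 1.25 (adjusted p = 0.0041). Metallocarboxypeptidases, which remove residues from the carboxyl ends of peptides, had 6 of 16 called higher and 1 lower, with CG18585 at 2.72, CG8560 at 1.56 and CG17633 at 0.98.

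Other digestive enzymes were also mostly called higher. The list held 29 amylases, maltases, lysozymes, alpha-mannosidases and other enzymes, among them peptidases such as cathD. Of these, 20 were called higher and 1 lower, beside 6.0% and 7.55% of all tested genes, and the median log2 fold change was 1.66. The alpha-mannosidase genes CG9463, CG9465, CG9466 and CG9468 had log2 fold changes of 7.61, 6.44, 3.83 and 3.22. CG9465 had only 3, 7 and 21 counts in the WT-labelled libraries. LysB, LysD and LysS, lysozymes of the midgut, had log2 fold changes of 2.34, 1.98 and 1.34. LysX was the one called lower (-2.80, adjusted p = 0.0027, edgeR). The peritrophic matrix, the chitin and mucin sheet that lines the midgut lumen, was divided, with 2 of 13 genes called higher and 5 lower. Its most abundant genes, Peritrophin-15a and Peritrophin-15b, had log2 fold changes of 0.59 (adjusted p = 0.067) and 0.84 (adjusted p = 0.027), and Muc55B was called higher at 1.06. The 5 called lower were Muc26B (-3.08), Muc96D (-2.69), Muc68E (-3.10), Mur2B (-2.87) and Muc68D (-4.82). Mean TPM was 300 in the WT-labelled against 23.0 in the KO-labelled libraries for Muc26B, and 293 against 28.8 for Muc96D. Muc68D had at most 35 counts in any library.

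Regulators did not follow the enzymes. GATAe, a GATA factor known to drive digestive enzyme genes in the midgut, had a log2 fold change of 0.003 (adjusted p = 0.99, edgeR), and cad, a homeobox gene of the posterior midgut, 0.08. fkh was called lower at -1.36 (adjusted p = 0.0027). Of 14 midgut transcription factors none was called higher and 3 were called lower, where 7.55% of all tested genes were called lower. But none of the 14 was called lower with the length trend removed, 1 with DESeq2 and 1 without WT-labelled library 2. Activin signalling through Dawdle and the zinc finger protein Sugarbabe is known to lower digestive enzyme genes on a sugar-rich diet. The ligand daw had a log2 fold change of -0.11 (adjusted p = 0.53), its Smad Smox of -0.83 (adjusted p = 0.0031, under the fold threshold) and sug of 0.16 (adjusted p = 0.50). Of 12 genes of these signals, none was called higher, where 6.0% of all tested genes were. Only 1, Crtc, was called lower, near the 7.55% of all tested genes, and this call was lost with the length trend removed.

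**Figure D5:**
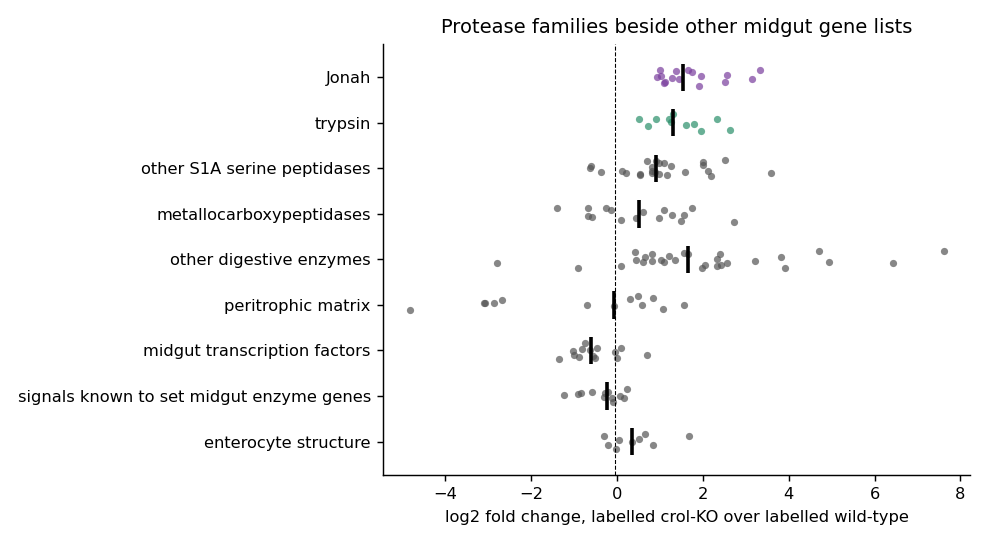
Log2 fold change (horizontal axis, KO-labelled over WT-labelled, edgeR on TMM-scaled counts) of each tested gene of the Jonah and trypsin families and of the other midgut lists. Each point is 1 gene, the thick bar is the list's median and the dashed line the median of all tested genes, with medians of 1.55 for Jonah, 1.30 for trypsin, 1.66 for other digestive enzymes and -0.60 for midgut transcription factors.

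None of 8 markers of the enterocyte itself was called in either direction, their median log2 fold change was 0.02, and their summed TPM was 340 to 458 in the WT-labelled libraries and 284 to 470 in the KO-labelled ones, which overlap. Tsp2A (0.84, adjusted p = 0.0028, edgeR) and mex1 (0.66, adjusted p = 0.020) were past the adjusted p only, and mesh, of the septate junction, stood at 0.04 (adjusted p = 0.91). With the length trend removed, all 8 had positive log2 fold changes with a median of 0.30, none was called, and mesh stood at 0.56 (adjusted p = 0.032). Npc2f, of the Niemann-Pick C2 family of sterol-binding proteins, was the one called gene of 9 structural genes of the enterocyte, at 1.68. Over all tested genes 6.0% were called higher and 7.55% lower, so that counts of calls in such short lists say little about the enterocyte.

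Some markers of other organs also differed between the labelled groups. The calls stand beside 6.0% of all tested genes called higher and 7.55% lower. The sums are on the TPM scale, where the median log2 fold change of all tested genes was -0.48 (limma on log2(TPM + 1)). How far lower sums follow from that scale was not tested. On the TMM scale the medians were -0.77 for neuron and -0.22 for enteroendocrine markers, and only 1 enteroendocrine marker was past the adjusted p. Of 6 fat body markers, 3 were called lower (Fbp1, Fbp2 and Lsp1alpha), and their summed TPM was 38123 to 42528 in the WT-labelled libraries against 23387 to 26116 in the KO-labelled ones. For 6 salivary gland glue genes the sums were 33616.5 to 39585 against 15191.5 to 33584, with Sgs1 called lower. Neuron markers had 2 of 6 called lower and sums of 22.6 to 37.4 against 9.90 to 14.5 TPM, and enteroendocrine markers 1 of 6 and sums of 36.4 to 47.3 against 16.5 to 27.8 TPM. With the length trend removed no neuron or enteroendocrine marker was called, while 3 fat body and 2 salivary gland markers were called lower. The enteroendocrine call was that of pros, a homeobox transcription factor gene, which had 145.9 CPM in WT-labelled library 2 and 52.0 and 52.4 CPM in the other WT-labelled libraries. Without that library it was lost, and 1 neuron marker was called lower. With 1 library of either group left out, 0 to 2 neuron and 0 to 1 enteroendocrine markers were called lower. No hemocyte marker was called, but 3 of 6 were past the adjusted p and lower, the median log2 fold change was -0.54, and the sums of 90.8 to 123 TPM against 38.9 to 57.2 TPM do not overlap. No muscle marker was called, testis markers had 2 of 6 called higher, and no marker of any list was at 0 in all libraries. The part of these shifts in the protease values was not tested.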

How the data were processed

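Whole larvae of instar 3 gave 6 poly(A) RNA libraries from 40 larvae each, with 3 per genotype label. The kit keeps strand, but whether the counting used it is not given in the sources used here. The authors trimmed reads with Trim Galore 0.6.1, aligned them to dm3 with STAR 2.7.3a and ran RSEM 1.3.2, and deposited its expected counts for each gene, with no scaling to depth. The deposited TPM values come from the same RSEM run and are scaled per transcript length and library, so that they compare genes within a library. Most totals exceed the read number given for the libraries, so that whether a count is a read or a pair was not settled.

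Expected counts were rounded and tested with edgeR 4.0.16 in R 4.3.3 (TMM, quasi-likelihood test, Benjamini-Hochberg adjustment over all 12434 genes that reached 10 counts in 3 or more libraries). With 3 libraries against 3, the smallest two-sided exact permutation p is 0.1, so that significance rests on spread pooled across genes. Alternatives were DESeq2 1.42.0, limma 3.58.1 on TPM after adding 1 or 0.1 and taking log2, other size factors, other count minimums, the replicate number as a block, removal of each library's lowess trend (span 0.3) over length, summed paralogs, each library left out, no fold threshold and an adjusted p under 0.01. Library totals only, and scaling without the proteases, were added after the values were seen. The tests were checked on simulated counts.

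The protease genes and lists were chosen with earlier results of these data known. Named genes are all genes matched by symbol, CG30025 and CG30031, the 3 genes of highest mean CPM in each list, and crol and w. Flanking genes, the alpha-mannosidase genes, Tsp2A, pros, cathD, Fbp1, Fbp2, Lsp1alpha, Sgs1, LysX and Crtc were named after their values were seen. The same holds for the 5 peritrophic matrix genes called lower. Gene order and arms come from the Release 6 annotation, whose coordinates are not given because the tables use dm3. Protein and promoter sequences were not analysed here.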

Additional observations from a re-analysis of the deposited data

How the results depend on the processing

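Of the 29 tested proteases, 23 were called higher and 1 lower in the main test. The number called higher fell to 11 with limma on log2(TPM + 1), 12 with limma on log2(TPM + 0.1) and 14 with library totals only, a setting added after seeing the data. It was 19 to 27 under all other settings, 20 to 26 with 1 library left out, and 1 gene, Ser6, was called lower under every setting. Over all genes, 1685 were called, against 3386 with limma on log2(TPM + 0.1), 2929 with library totals only and 4112 with no fold threshold. The only protease whose direction reversed was lambdaTry, at -0.15 with limma on log2(TPM + 1) and -0.15 on log2(TPM + 0.1). The share of all calls that were higher was 44.3% in the main test, 54.8% with upper-quartile normalization, 9.39% and 7.29% with limma on the 2 TPM scales, 12.2% with library totals only and 57.6% without library 2 labelled wild-type.

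Libraries that share a number deviated from the means of their groups with correlations of 0.0035, -0.29 and -0.052. Libraries of unlike number gave -0.26 to 0.32. With 3 libraries a group, these correlations cannot settle whether the numbers pair the libraries. With the replicate number as a block, 21 proteases were called higher, Jon25Bi (1.06, adjusted p = 0.064, edgeR) and Jon99Cii (1.05, adjusted p = 0.063) losing their calls, and 682 genes were called higher and 809 lower. Depth limits only the Ser genes, since every Jonah and trypsin gene had at least 1635 counts in each library.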
